A study of Mus musculus with 2 samples.

Results

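Polycomb, Trithorax and histone-modifying genes were compared between interleukin-5 producers and non-producers among memory T helper 2 (Th2) cells. The 48 genes were chosen by name as writers, readers and erasers of histone and DNA methylation and acetylation, and 47 of them had at least 1 probe set naming that gene alone, out of 18193 genes so named on the array. Suv39h1 had none and was not analysed here. CD4 T cells of DO11.10 T cell receptor transgenic mice (BALB/c strain), whose receptor recognises an ovalbumin peptide, were stimulated with that peptide for 6 days with 25 U/ml IL-2 and 100 U/ml IL-4. They were moved into syngeneic BALB/c nu/nu recipients, which lack a thymus, and memory Th2 cells were taken from the spleen 30 days later. Both groups share this history, and the labels name only the sort as the difference between them. The IL-5+ group and the IL-5- group were each measured on 1 Affymetrix array, so no difference below has a replicate check, a test or a p-value. How many recipients there were, and whether RNA was pooled, is not given in the labels.

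Polycomb repressive complex 2 (PRC2) writes the repressive methyl mark on lysine 27 of histone H3, through the catalytic subunits Ezh2 or Ezh1 with Eed and Suz12. Polycomb repressive complex 1 (PRC1) binds that mark and ubiquitylates histone H2A, while Trithorax (COMPASS) complexes methylate lysine 4 of histone H3 at active genes. In T helper cells both systems are known to act at cytokine and lineage-factor genes, and Bmi1 and Men1 are known for roles in the upkeep of memory Th2 cells. Histone deacetylases and DNA methyltransferases oppose acetyltransferases and TET dioxygenases at the same kinds of genes.

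All values are linear signals in arbitrary units, and each ratio is the log2 of IL-5+ divided by IL-5-. A gene is represented by its brightest probe set, and signals under 36.3, the 40th percentile of all signals, were raised to that floor. Arrays give probe set signals that cannot be compared between genes, so only ratios are. Summed signals of a list are set mostly by its brightest probe sets and are a description only. With no replicate, the error available is the SD of the log2 ratio between probe sets of the same gene, which was 0.54 for mean signals of 36.3 to 112.8, 0.38 up to 500, 0.21 from 500 to 2000 and 0.13 above. It leaves out variation between cell preparations. Il5, on which the cells were sorted, had signals of 37085 and 67.4. The T cell markers Cd3d, Cd3e, Cd3g, Cd4, Cd28 and Cd5 were above the floor on both arrays, summing to 34018 (IL-5+) and 44103 (IL-5-). All 6 of these T cell markers were below 0 (median log2 ratio -0.25), as were most of the markers of other cell types below. Of 27 markers of B, myeloid, dendritic, NK, CD8 T, erythroid and platelet cells with a probe set, 12 were at or under the floor on both arrays, including Cd79a, Cd14, S100a8 and Ncr1. The 27 summed to 1326 and 1690, with signals under the floor added in as measured. Of the 15 measured, 11 were below 0 (73.3%, beside 55.5% of all named genes) and 4 above. The 4 measured dendritic cell markers were all below 0 (median log2 ratio -0.81), with H2-Aa at 51.0 in IL-5+ and 156 in IL-5- cells. So were the 3 measured B cell markers (median -0.40) and the 3 measured monocyte and macrophage markers (median -0.24). Cd8b1 (280 and 168) and Klrd1 (145 and 91.7) were higher in IL-5+ cells, whereas Cd8a (66.9 and 76.7) was slightly lower. The part of these markers in the ratios below was not tested. In bulk RNA, fewer cells of a type and less RNA per cell cannot be told apart.

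No chromatin gene reached a 2-fold difference at its brightest probe set. All 47 genes were above the floor on both arrays, and 36 had a signal of 500 or more on 1 or both arrays. Among all 13133 measured named genes, meaning those that passed the floor on either array, 2.85% were higher in IL-5+ cells by 2-fold or more and 4.01% were lower. At 1.5-fold, 5 chromatin genes were lower and none was higher, beside 11.9% and 7.88% of all named genes. The share of lower genes, 5 of 47, lies near that background. A ratio below 0 was found for 32 of the 47 genes (68.1%), beside 55.5% of all named genes, and after median scaling of the arrays the shares were 59.6% (28 of 47) and 47.0%. Of the 36 bright genes, 2 were lower by 1.5-fold and 23 were below 0, beside 6.49% and 53.8% of the 6129 named genes with a signal of 500 or more, of which 5.6% were higher by 1.5-fold. The 5 genes lower by 1.5-fold or more were Hdac5, Kat2b, Hdac7, Tet1 and Cbx7.

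**Figure D1:**
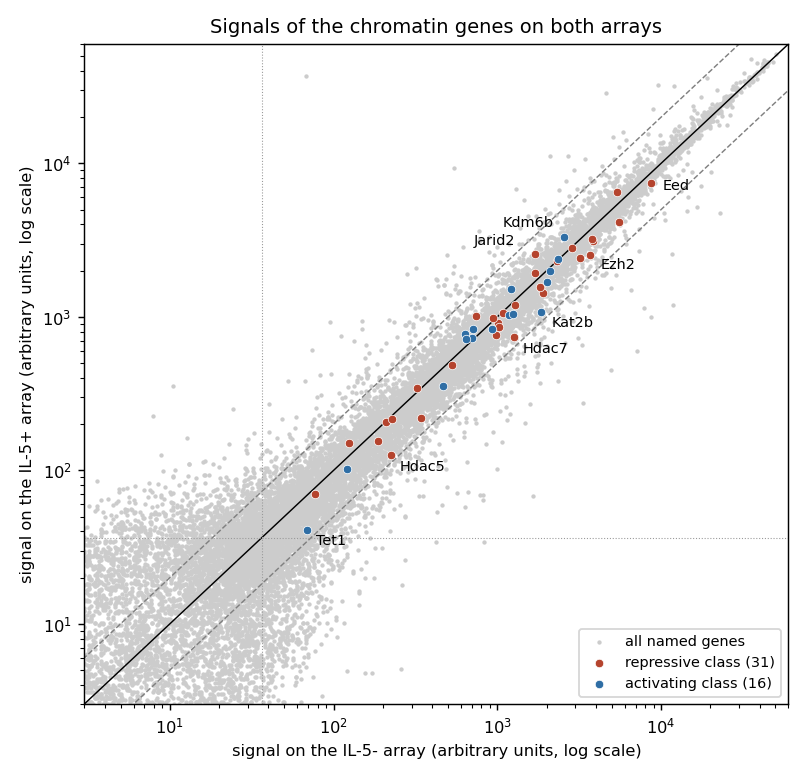
Signal on the IL-5+ array (vertical, log scale) against signal on the IL-5- array (horizontal, log scale) for all named genes (grey, signals from 3 up are drawn) and the 47 chromatin genes (31 repressive in red, 16 activating in blue). The solid line marks equal signals, the dashed lines a 2-fold difference and the dotted lines the floor of 36.3. Every coloured point lies between the dashed lines.

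Because most chromatin genes are bright, small ratios exceeded the spread between probe sets in some of them. For 12 of the 47 the ratio was larger than 2 of these SDs, 8 lower and 4 higher, beside 9.77% lower and 7.96% higher among the 10990 named genes that passed the floor on both arrays. The lower ones were Ezh2, Suz12, Bmi1, Phc2, Hdac5, Hdac7, Dnmt1 and Kat2b. The higher ones were Jarid2, Kdm5b, Hdac2 and Kdm6b. The background shares were not matched for brightness, so no excess can be read from them. A signal of 500 or more was found for 36 of the 47 chromatin genes and for 6129 of all 13133 measured named genes. Of the 17 genes with 3 or more measured probe sets, 6 had every probe set below 0 and 5 had every probe set above 0, beside 20.2% and 17.2% of the 2745 such genes on the array. Of 121 single probe sets, 108 passed the floor on either array. A 2-fold difference was found at 4 lower and 2 higher ones, beside 3.89% and 2.95% of all named probe sets. They belonged to Kat2b, Hdac7, Men1 and Kmt2d.

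**Figure D2:**
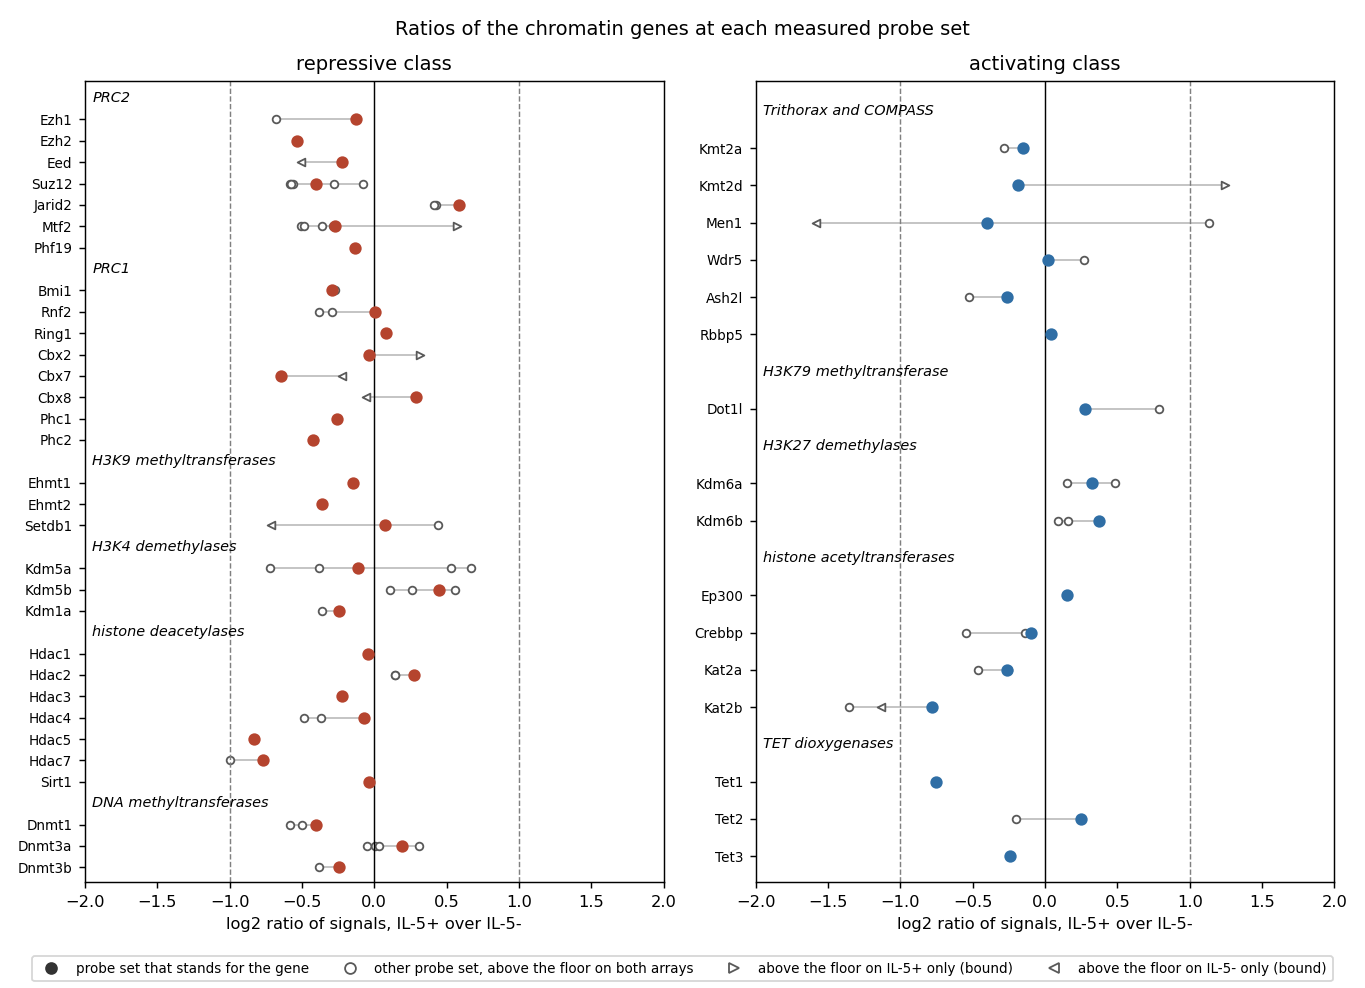
Log2 ratio (IL-5+ over IL-5-) at each measured probe set of the chromatin genes, grouped by complex or enzyme family, with the repressive class on the left and the activating class on the right. Filled points are the probe sets that stand for a gene, open points the others, triangles those above the floor on 1 array only, and grey lines the range within a gene. Men1 spans from -1.59 to 1.13, whereas the probe sets of Jarid2, Kdm5b, Kdm6a and Kdm6b all lie above 0.

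Within PRC2, the subunits did not all go the same way. Its 7 genes had a median log2 ratio of -0.22, beside -0.048 over all named genes; 6 were below 0 and Jarid2 stood alone above 0. None of the 6 changed sign under any of the other ways of processing tried, and neither did Jarid2. All were above the floor on both arrays, so the lower floor and no floor could not alter these ratios. Ezh1 and Phf19 differed by less than the spread between probe sets.

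The starts of PRC2 genes and of a demethylase gene that opposes it are shown because these genes ran in opposite directions. Sequences are from RefSeq on GRCm38.p6, from 250 bases before to 50 bases after a start site, read 5′ to 3′ on the strand of the gene. Capitals mark matches to TTTCCCGC, TTTCGCGC, TTTGCCGC or TTTGGCGC, motif letters that the cell-cycle factors of the E2F family are known to bind, on either strand. The Ezh2 window is chr6:47594981-47595280 (minus strand), that of Suz12 is chr11:79992856-79993155 (plus) and that of Eed is chr7:89980927-89981226 (minus). The first listed of 2 Jarid2 start sites lies in chr13:44730524-44730823 (plus), and the Kdm6a start in chrX:18162325-18162624 (plus).
Ezh2: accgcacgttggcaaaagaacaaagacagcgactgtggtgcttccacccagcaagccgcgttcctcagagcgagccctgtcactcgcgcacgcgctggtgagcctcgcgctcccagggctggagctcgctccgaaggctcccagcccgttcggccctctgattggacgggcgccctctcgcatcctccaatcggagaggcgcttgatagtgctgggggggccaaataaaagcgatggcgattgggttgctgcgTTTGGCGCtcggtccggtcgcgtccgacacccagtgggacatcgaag
Suz12: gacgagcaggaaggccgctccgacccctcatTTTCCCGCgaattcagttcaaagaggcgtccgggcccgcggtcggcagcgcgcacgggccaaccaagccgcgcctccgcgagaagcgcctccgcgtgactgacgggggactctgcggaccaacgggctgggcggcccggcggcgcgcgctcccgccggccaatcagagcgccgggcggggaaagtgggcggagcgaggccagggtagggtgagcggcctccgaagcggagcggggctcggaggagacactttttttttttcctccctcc
Eed: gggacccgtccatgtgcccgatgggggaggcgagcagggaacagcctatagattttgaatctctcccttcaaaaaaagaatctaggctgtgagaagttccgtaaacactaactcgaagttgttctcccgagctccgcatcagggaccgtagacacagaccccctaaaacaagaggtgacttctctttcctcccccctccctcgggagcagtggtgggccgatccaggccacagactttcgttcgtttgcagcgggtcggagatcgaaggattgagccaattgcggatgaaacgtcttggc
Jarid2: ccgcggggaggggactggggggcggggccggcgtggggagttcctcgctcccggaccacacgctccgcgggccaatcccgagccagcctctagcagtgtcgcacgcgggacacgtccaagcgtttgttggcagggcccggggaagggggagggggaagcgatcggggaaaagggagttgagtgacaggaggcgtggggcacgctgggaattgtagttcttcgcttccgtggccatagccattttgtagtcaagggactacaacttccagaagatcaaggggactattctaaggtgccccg
Kdm6a: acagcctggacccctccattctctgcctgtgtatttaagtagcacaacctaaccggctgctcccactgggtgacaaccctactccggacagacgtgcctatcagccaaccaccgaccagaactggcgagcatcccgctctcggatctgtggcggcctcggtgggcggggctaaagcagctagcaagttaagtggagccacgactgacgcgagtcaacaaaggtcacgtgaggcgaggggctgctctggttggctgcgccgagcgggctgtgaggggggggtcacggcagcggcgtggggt

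Of these 5 windows, Ezh2 and Suz12 hold 1 match each and Eed, Jarid2 and Kdm6a hold none. RefSeq start sites were listed for 42 of the 48 genes, 58 windows in all. A match was found in 6 of the 58 (10.3%), those of Ezh2, Suz12, Phf19, Dnmt1, Kat2a and Suv39h1, and in 2.26% of all 32851 windows of the same length. A match is a description of letters only. The windows of the chromatin genes were also rich in CpG dinucleotides, with a median of 24 per window beside 7 over all windows, and a median ratio of observed to expected CpG of 0.81 beside 0.38. The E2F letters, and the letters below other than CCAAT, all contain a CpG. The shares of windows with a match were not matched for CpG content. GGGCGG, the letters bound by SP factors, stood in 72.4% of the 58 windows and 35.7% of all windows, on either strand. CCAAT stood in 37.9% and 37.4%, the palindromic NRF1 motif in 3.45% and 0.971%, and the ETS letters CCGGAAGT in none of the 58 and 3.89% of all. The NRF1 share rests on 2 windows, both of Dnmt1. Some genes have several windows, which can overlap, so the 58 are not independent.

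Ezh2, the main catalytic subunit in dividing cells, had an IL-5+ signal of 2544 beside an IL-5- signal of 3688, a log2 ratio of -0.54 at its only probe set. Under the other processing choices it ranged from -0.56 to -0.46. Ezh1, the catalytic subunit known from resting cells, had signals of 485 and 528 (-0.12), and its second measured probe set gave -0.68. Both paralogs were thus lower on the IL-5+ array, Ezh1 by less than the spread between probe sets at its brightest probe set.

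Suz12, which PRC2 needs for its stability, had signals of 4167 and 5520 (-0.41). All 6 of its probe sets were lower on the IL-5+ array, from -0.58 to -0.079, with a mean of -0.41 ± 0.20 (SD over 6 probe sets of 1 pair of arrays). Eed, which binds the methylated lysine, had signals of 7463 and 8720 (-0.22), and its dim second probe set passed the floor in IL-5- cells only, which bounds the difference at 1.42-fold or more. Mtf2, a Polycomb-like accessory subunit that helps PRC2 find CpG-rich DNA, had signals of 1538 and 1856 (-0.27). Its 5 probe sets above the floor on both arrays had a mean of -0.38 ± 0.11 (SD over 5 probe sets), and a dim sixth passed the floor in IL-5+ cells only (bound 0.57). Phf19, another Polycomb-like subunit, was dim at 70.4 and 77.3 (-0.13). The core and Polycomb-like subunits thus shared 1 direction at their brightest probe sets, by less than 1.5-fold each.

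Jarid2, an accessory subunit that recruits PRC2, ran the other way. Its IL-5+ signal of 2554 was 149.9% of the IL-5- signal of 1704 (0.58), just under the 1.5-fold limit. Its 3 probe sets gave 0.58, 0.43 and 0.41. Set against Suz12, the ratio of Jarid2 was higher by 0.99 on the log2 scale. After median scaling of the arrays, the ratio of Jarid2 was 0.66.

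PRC1 genes were more mixed, with a median of -0.15 over 8 genes, 5 below and 3 above 0. Bmi1, the ring-finger subunit known for its role in memory Th2 cell survival, had signals of 3132 and 3844 (-0.30), and its second probe set gave -0.27. Phc2, a Polyhomeotic subunit that joins PRC1 complexes to each other, was lower at both probe sets, with signals of 1424 and 1914 (-0.43) and a second ratio of -0.42. Its relative Phc1 had signals of 155 and 186 (-0.26). The close agreement between the probe sets of Bmi1 and of Phc2 shows repeatability within these 2 arrays only.

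The ubiquitin ligase subunits Rnf2 and Ring1 were nearly level. Rnf2 had signals of 2314 and 2309 (0.0031), although its other 2 measured probe sets gave -0.29 and -0.38, and Ring1 had 342 and 323 (0.081). Among the chromobox subunits, which bind methylated H3, Cbx7 had signals of 219 and 343 (-0.65), Cbx2 had 206 and 210 (-0.033) and Cbx8 had 152 and 124 (0.29). At these signals the spread between probe sets was 0.38, so that of the chromobox genes Cbx7 alone exceeded it. Cbx7 stood at -0.44 with the median of its probe sets.

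The demethylases that remove the PRC2 mark were both higher on the IL-5+ array. Kdm6b, which is induced on T cell activation, had signals of 3291 and 2548 (0.37), with 0.16 and 0.091 at its other probe sets. Kdm6a, its X-linked relative, had signals of 1511 and 1206 (0.33), with 0.48 and 0.15 at the others. All 6 measured probe sets of the pair lay above 0. Set against Ezh2, the ratio was higher by 0.91 for Kdm6b and by 0.86 for Kdm6a. These are differences between ratios measured at 1 pair of arrays, and neither gene differed by 1.5-fold on its own.

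**Figure D3:**
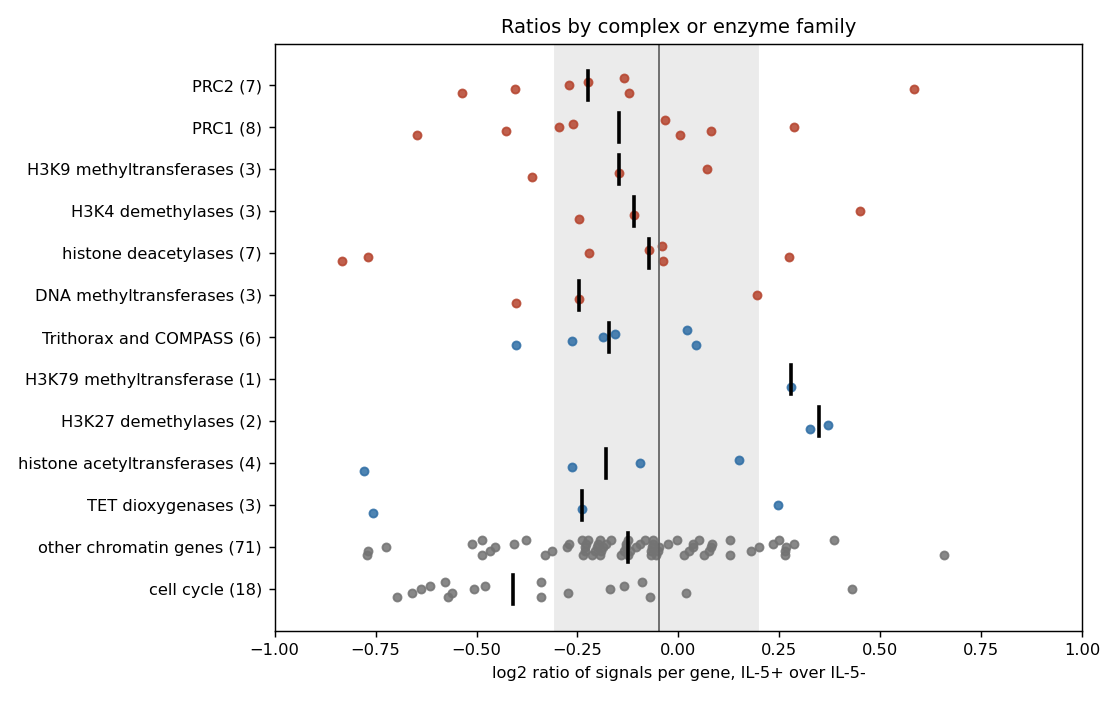
Log2 ratio per gene (IL-5+ over IL-5-) by complex or enzyme family, with the number of measured genes in brackets. Red points are repressive, blue activating and grey the other chromatin genes and the cell cycle genes; black bars are medians, the grey line is the median of all named genes (-0.048) and the shaded band their lower to upper quartile (-0.31 to 0.20). In PRC2 6 points lie left of 0 and Jarid2 lies at 0.58, and both H3K27 demethylases lie to the right of the band.

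Trithorax and COMPASS genes showed no ratio beyond 1.5-fold at their brightest probe sets (median -0.17, 6 genes). The methyltransferases Kmt2a (836 and 932, -0.16) and Kmt2d (1031 and 1174, -0.19) were close to level. The shared core subunits Wdr5 (0.021) and Rbbp5 (0.044) were level too, and Ash2l had signals of 1045 and 1254 (-0.26). Men1, which encodes Menin, the scaffold that ties Kmt2a to chromatin, gave contradictory readings. Its brightest probe set had 354 and 467 (-0.40), the second 129 and 59.1 (1.13), and the third 11.1 and 109 (a bound of -1.59). No direction can be given for Men1 from these arrays. A second Kmt2d probe set likewise read 85.8 and 19.8, at least 2.36-fold higher, against -0.19 at the brighter one.

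Dot1l, which methylates lysine 79 of histone H3, was higher at both probe sets, at 772 and 636 (0.28) and at 382 and 221 (0.79). The demethylases of lysine 4 went in different directions. Kdm5b had signals of 1011 and 740 (0.45), and its 4 probe sets lay above 0, from 0.11 to 0.56. Kdm1a (LSD1) had signals of 3210 and 3809 (-0.25), with -0.36 at its second probe set. Kdm5a had 1189 and 1283 (-0.11), but its 5 measured probe sets ranged from -0.72 to 0.67 and do not settle a direction. The 2 that lay above 0 were dim, with signals under 112.8.

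Methyltransferases of lysine 9, which mark silent chromatin, were within 1.5-fold. Ehmt2 (G9a) had signals of 765 and 983 (-0.36) and its partner Ehmt1 had 909 and 1006 (-0.15). Setdb1 had 989 and 941 (0.072), with 0.44 and a bound of -0.72 at its other probe sets.

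Of the class II histone deacetylases, Hdac5 and Hdac7 were lower by more than 1.5-fold, while the class I enzymes were within 1.5-fold. Hdac7, which shuttles in and out of the nucleus under T cell receptor signals, had signals of 743 in IL-5+ and 1266 in IL-5- cells (-0.77). Its second probe set read 291 and 581, which reached the 2-fold limit. Hdac5, of the same class, had signals of 126 and 224 (-0.83) at its only probe set, and -0.64 with a constant of 50 added to each signal. Hdac4, also of that class, had 216 and 227 (-0.072), with -0.36 and -0.49 at its other probe sets. All 6 measured probe sets of these 3 genes were lower on the IL-5+ array.

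Of the class I deacetylases, Hdac1 had signals of 2796 and 2877 (-0.041) and Hdac3 had 1569 and 1829 (-0.22). Hdac2, the partner of Hdac1 in the same complexes, was higher at all 3 probe sets, with 6468 and 5353 at the brightest (0.27) and 0.14 at both others. Sirt1, a NAD-dependent deacetylase, had 1054 and 1082 (-0.038).

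Among acetyltransferases, Kat2b (PCAF) had lower signals on the IL-5+ array at every probe set. The brightest read 1074 and 1843 (-0.78), the second 68.5 and 176 (-1.36), and the third passed the floor in IL-5- cells only (79.6), which bounds the difference at 2.19-fold or more. Taking the median over its probe sets made it the single chromatin gene beyond 2-fold, at -1.13. Its paralog Kat2a had 1681 and 2019 (-0.26), with -0.46 and -0.26 at the others. The coactivators Ep300 (718 and 648, 0.15) and Crebbp (1977 and 2112, -0.096) differed by less than the spread between probe sets.

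DNA methyltransferases differed among themselves. Dnmt1, which copies methylation after replication, had signals of 2438 and 3220 (-0.40), and its 3 probe sets had a mean of -0.49 ± 0.089 (SD over 3 probe sets). The enzymes that set new methylation were Dnmt3a, at 1940 and 1694 (0.19), and Dnmt3b, at 860 and 1020 (-0.25). Dnmt3a had 5 probe sets, from -0.053 to 0.31. TET dioxygenases, which oxidise methylcytosine, were dim or contradictory. Tet1 had signals of 40.8 and 68.9 (-0.76), close to the floor, and -0.39 with a constant of 50 added to each signal. Tet2 had 840 and 707 (0.25) against -0.20 at its second probe set, and Tet3 had 102 and 121 (-0.24).

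Grouped by the direction in which their products are best known to act, the repressive class had a median of -0.15 (31 genes, 23 below 0) and the activating class a median of -0.13 (16 genes, 9 below 0). The medians differed by -0.021 (repressive minus activating), and relative to the median of all named genes they stood at -0.098 and -0.078. The classes overlapped over nearly their whole range, from -0.83 to 0.58 and from -0.78 to 0.37. Among genes with a signal of 500 or more the medians were -0.22 (23 genes) and 0.021 (13 genes), beside -0.024 over all 6129 named genes that bright. Taking each gene's median over its probe sets, they were -0.28 and -0.057. Over the settings tried the gap ranged from 0.0030 to 0.24, and no replicate exists to test it. These settings are not independent: median scaling, the lower floor and no floor left the gap as reported, and the 60th percentile floor gave the same gap as leaving out dim genes.

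**Figure D4:**
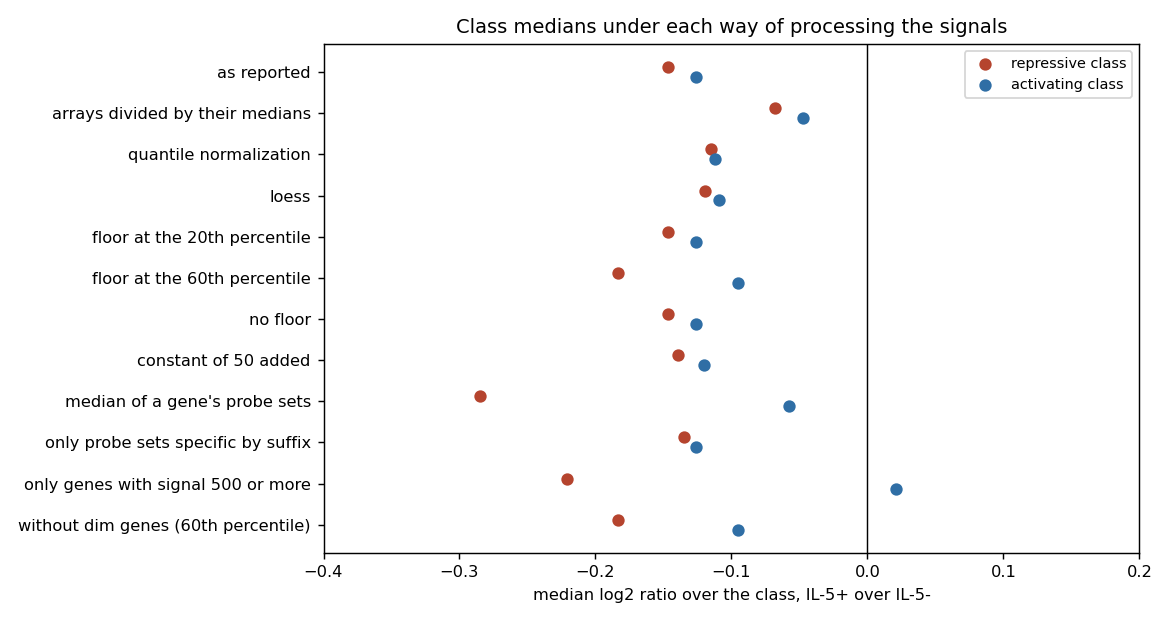
Median log2 ratio, IL-5+ over IL-5-, of the repressive class (red) and the activating class (blue) as reported and under 11 other ways of processing. The points lie 0.0030 apart with quantile normalization and 0.24 apart among genes with a signal of 500 or more. Median scaling, the lower floor and no floor have the same gap as the values as reported, so the rows are not independent.

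Other genes of the same pathways, 77 in all, gave a similar picture. Of 71 measured, none was at least 2-fold apart at its brightest probe set, although single probe sets of some passed that limit in both directions. Below 0 were 50 (70.4%) and the median was -0.13, beside 55.5% and -0.048 over all named genes. The furthest below 0 were Cbx6 (-0.77), a PRC1 chromobox gene, and Cbx5 (-0.77), which encodes the heterochromatin protein HP1 alpha. The other measured probe set of Cbx6 gave -1.29, and the 4 probe sets of Cbx5 ranged up to 0.18. The furthest above 0 were the deacetylase gene Sirt2 (1741 and 1103, 0.66) and Scmh1 (266 and 204, 0.39), a PRC1 component.

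Ezh2, Suz12 and Dnmt1 are known to be more abundant in dividing cells. Of 18 measured cell cycle genes, 16 were below 0 (88.9%, beside 55.5% of all named genes), with a median of -0.41 (beside -0.048) and summed signals of 63649 (IL-5+) and 80768 (IL-5-). Mcm6 (4731 and 7676), the lowest of the 18, and Top2a (872 and 1335) were lower on the IL-5+ array, whereas Mki67 had 186 and 138. Pcna, the brightest, was close to level (24450 and 26032, -0.090). The part of the cell cycle genes in the ratios of Ezh2, Suz12 and Dnmt1 was not tested.

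Genes known from other work as Polycomb or Trithorax targets in T cells went both ways. Of 12 measured, 3 were higher by 2-fold or more (Il5, Il4 and Il13) and 3 were lower (Tbx21, Eomes and Klf2), beside 2.85% and 4.01% of all named genes. The cells were sorted on IL-5, so the difference in Il5 was set by the sort and is not to be read against that background. The count of 3 higher genes includes Il5, and how far Il4 and Il13 follow the sort was not tested. Like the other lists, this one was chosen with earlier results of these data known, so its counts are a description only. Gata3, which Menin is known to help keep on, had signals of 5968 and 3570 (0.74). Pmaip1, a death gene that Bmi1 is known to repress in memory Th2 cells, had 407 and 413 (-0.021), and Cdkn2a, the classical PRC1 target, did not pass the floor on either array (25.8 and 26.7).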

How the data were processed

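Total RNA from 1 IL-5+ and 1 IL-5- sample of sorted memory Th2 cells was labelled with biotin for Affymetrix arrays, per the labels' protocols. The authors deposited a linear signal intensity for each probe set, and the submitters' processing notes name GCOS, Affymetrix's own software. Version and scaling are not given in the labels, and the deposited values hold no detection calls. Trimmed means (2% off each end) were 496 and 498, so ratios are relative to the rest of the array.

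Of 45037 probe sets, 34945 had 1 gene symbol, 932 several and 9160 none. The entrez identifiers of all 121 chromatin probe sets gave the same symbol in RefSeq. Each gene took the probe set that was brightest by mean log2 signal, and signals under 36.3 were set to it. Genes at least 2-fold apart were counted, with no test. The rule for named genes took all members, the 2 highest and 2 lowest of the other pathway genes, and at most 4 of the target and cell cycle lists. The text names 9 target genes, more than the rule allows, and these and the marker genes were chosen after their values were seen. Members and lists were chosen with earlier results of these data known. Counting was tested on simulated arrays. Alternatives were other scalings, floors, an added constant, choices of probe set and folds; the 1.5-fold counts, the counts below 0 and the split at a signal of 500 were chosen after seeing the data. No genome build is named for the values. Python 3.11.15, numpy 2.4.6, pandas 2.3.3 and statsmodels 0.14.6 were used.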

Additional observations from a re-analysis of the deposited data

How the results depend on the processing

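With 1 array per group, no alternative carries a test, and a median was taken as moved beyond 0.1 and a count beyond 1.5 times. The count of 0 genes at least 2-fold lower became 1 with each gene's median over its probe sets (Kat2b), 1 with only probe sets without _s_at, _x_at and _a_at (Kat2b, -1.36), and 5 at 1.5-fold. Taking each gene's median over its probe sets, the repressive median was -0.28 and the class difference -0.23. With only genes of signal 500 or more, the activating median was 0.021 and the class difference -0.24. The count of 0 genes at least 1.5-fold higher became 1 (Jarid2) with arrays divided by their medians (1), with quantile normalization (1) and with loess (1). The count of 5 at least 1.5-fold lower became 3 with a constant of 50 added. Of 417 single-gene values under alternatives, 404 stayed within the spread between probe sets, and 10 changed sign, none with a reported ratio beyond 0.2. Many of the 417 could not differ, so these counts overstate the agreement. All 47 genes were above the floor on both arrays, so the lower floor and no floor left each ratio as reported. Kmt2d, just inside the 0.2 limit at -0.19, became 0.53 with the median over its probe sets. Dim signals limit Tet1, Tet3 and Phf19.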

Other observations

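Other chromatin genes were grouped by the start of their symbol, a choice made after the data were seen. Among genes of the structural maintenance of chromosomes family, which includes subunits of cohesin and condensin, all 6 measured were below 0, beside 55.5% of all named genes. Smc4, a condensin subunit, had signals of 2987 in IL-5+ and 6138 in IL-5- cells (-1.04), whereas Smc3 was level at 1612 and 1616. The 5 measured Smyd methyltransferase genes were below 0 too, with Smyd3 at 221 and 414 (-0.90) and Smyd2 at 2639 and 3883 (-0.56). Of 11 measured Smarc genes, which include subunits of the SWI/SNF remodellers, none was 1.5-fold apart (median -0.17, from -0.32 to 0.13). The Chd remodeller genes were evenly split (5 of 10 above 0, median 0.019), from Chd3 of the NuRD complex at 397 and 756 (-0.93) to Chd9 at 0.55. Also leaning lower were, among others, the Phf genes (15 of 18 below 0), the Kdm genes outside the 48 (9 of 12) and the Mbd genes (all 6). Families leaning the other way were the Brd genes, with 4 of 6 above 0 (median 0.082), the Sap genes, with 3 of 4 (from -0.0048 to 0.12), and both Bcor genes. Over all named genes 55.5% were below 0, and counts in families this small are a description only. Arid5a, an RNA-binding regulator of cytokine transcripts, had 356 and 913 (-1.36), and Phf11d had 117 and 476 (-2.03). In the other direction, the linker histone gene H1f2 had 926 and 402 (1.20). All ratios rest on 1 array per group.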
